A study of Homo sapiens with 20 samples.

Results

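The tight junction genes examined here are 9 genes that code for proteins of the epithelial tight junction, namely the claudins CLDN1, CLDN3, CLDN4, CLDN7 and CLDN12, the MARVEL-domain proteins OCLN and MARVELD2, the junctional adhesion molecule F11R, and the plaque protein TJP1. They were chosen by gene symbol, with earlier results of these data known. Each symbol matched 1 row, and the 9 rows were taken from the 60271 genes in the tables. RNA-seq was performed on MDA-MB-468, a human triple-negative breast cancer line with epithelial morphology and a high level of the EGF receptor. The cells of every group were serum-starved, and 4 groups were then given EGF at 50 ng/mL, for 12, 24, 48 or 72 h, whereas the control group received none. Each of the 5 groups held 4 biological replicates, which gave 20 libraries. All groups were seeded and harvested at the same time and differed in when EGF was added, so that the untreated control is a single group shared by every time point. All samples come from 1 unmodified cell line, so the replicates measure the spread between cultures of that line.

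Tight junctions seal the space between neighbouring epithelial cells and separate the apical from the basolateral membrane. Claudins form the strands of the seal and decide which ions pass, OCLN and MARVELD2 (tricellulin) are further strand proteins, with MARVELD2 concentrated at tricellular contacts, and F11R (JAM-A) is an immunoglobulin-like adhesion protein beside the strands. TJP1 (ZO-1) lies under the membrane and ties these proteins to actin. Loss of such junctions is one of the classical signs of the epithelial-mesenchymal transition (EMT), the change of state that EGF is used to induce in this line.

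Library totals lay between 15611961 and 25856953 counts. Across the 9 genes, counts per library ranged from 121 (CLDN3) to 7050 (CLDN7). Mitochondrial genes held a mean of 9.41% of the counts at 12 h and 15.0% at 72 h. Expression is given as CPM, the counts of a gene scaled to a common library size, after TMM scaling, which corrects library size for composition, and as mean ± SD over 4 libraries. Differences were tested by the quasi-likelihood method of edgeR, p was adjusted after Benjamini and Hochberg across the 16522 genes tested, and a change was called at an adjusted p under 0.05. Among the markers of the line, EGFR, KRT18, KRT8, CDH1 and EPCAM were expressed in every library. The markers chosen also included KRT5, KRT7 and KRT19, whose levels are not reported here. EGFR was at 3474 ± 103 CPM without EGF and rose to 11752 ± 323 CPM by 12 h. No library held a count of PGR. The other receptors by which such lines are classed had reads in every library, ESR1 with 35 to 153 counts and group means of 2.33 to 5.76 CPM, and ERBB2 with 141 to 584 counts and group means of 8.87 to 21.5 CPM. Of the 8 markers of leukocytes, endothelium and fibroblasts, 7 reached at most 9 counts in any library, and PECAM1 had group means of 0.374 to 4.20 CPM. Replicates differed by more than counting error, and in 30 replicate pairs the variance was between 3.36 and 51.7 times that of sampling alone. The largest values came from replicates 2 and 3 of the control and of EGF 48 h, and values without these 4 libraries are given where they change a call.

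At 12 h of EGF-treatment the tight junction genes were mostly upregulated, with 7 of the 9 higher than the control, CLDN3 lower, and MARVELD2 not called. The background for this comparison is high: 69.4% of all genes tested were called, 32.9% as higher and 36.5% as lower. The median log2 fold change of the 9 genes was 0.84, against -0.05 over all genes. Among tight junction genes outside the 9, it was -0.13 for 14 transmembrane genes and 0.21 for 26 plaque genes. At 24 h, 3 of the 9 were higher (CLDN7, CLDN12, TJP1) and 3 lower (CLDN1, CLDN3, MARVELD2), where 58.8% of all genes were called, 29.2% as higher and 29.6% as lower, and the median was 0.01, against -0.01 over all genes. At 48 h only CLDN12 was higher, and CLDN3, F11R and MARVELD2 were lower, where 45.8% of all genes were called, 24.0% as higher and 21.8% as lower, with a median of -0.18 against 0.01. At 72 h, CLDN1, CLDN4, CLDN7 and CLDN12 were higher and CLDN3, F11R and MARVELD2 lower, where 61.6% of all genes were called, 30.6% as higher and 31.0% as lower, with a median of 0.17 against -0.01. CLDN12 was thus the 1 gene of the 9 called as higher at every time and CLDN3 the 1 called as lower at every time. In bulk RNA, fewer cells with a transcript and less of it per cell cannot be told apart. The 4 time points share the same control libraries, so these counts are not independent of each other.

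Each time point was also compared with the one before it. From 12 to 24 h, 7 of the 9 genes fell and none rose, where 53.7% of all genes were called and 25.9% as lower, and the median change was -0.52, against 0.04 over all genes. From 24 to 48 h, 4 fell (CLDN12, OCLN, TJP1, F11R) and none rose, where 50.2% of all genes were called and 24.3% as lower. From 48 to 72 h, 5 rose (CLDN1, CLDN4, CLDN7, CLDN12, OCLN) and none fell, where 35.7% of all genes were called and 17.9% as higher. These steps share their middle time points. The 4 libraries of one group lay wholly above or below the 4 of the other for 7 of the 9 genes at 12 h (60.8% of all genes), 4 at 24 h (48.2%), 3 at 48 h (34.9%) and 6 at 72 h (52.0%) against the control. In the successive steps this held for 7 genes from 12 to 24 h (53.5% of all genes), 3 from 24 to 48 h (44.6%) and 5 from 48 to 72 h (35.1%).

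**Figure D1:**
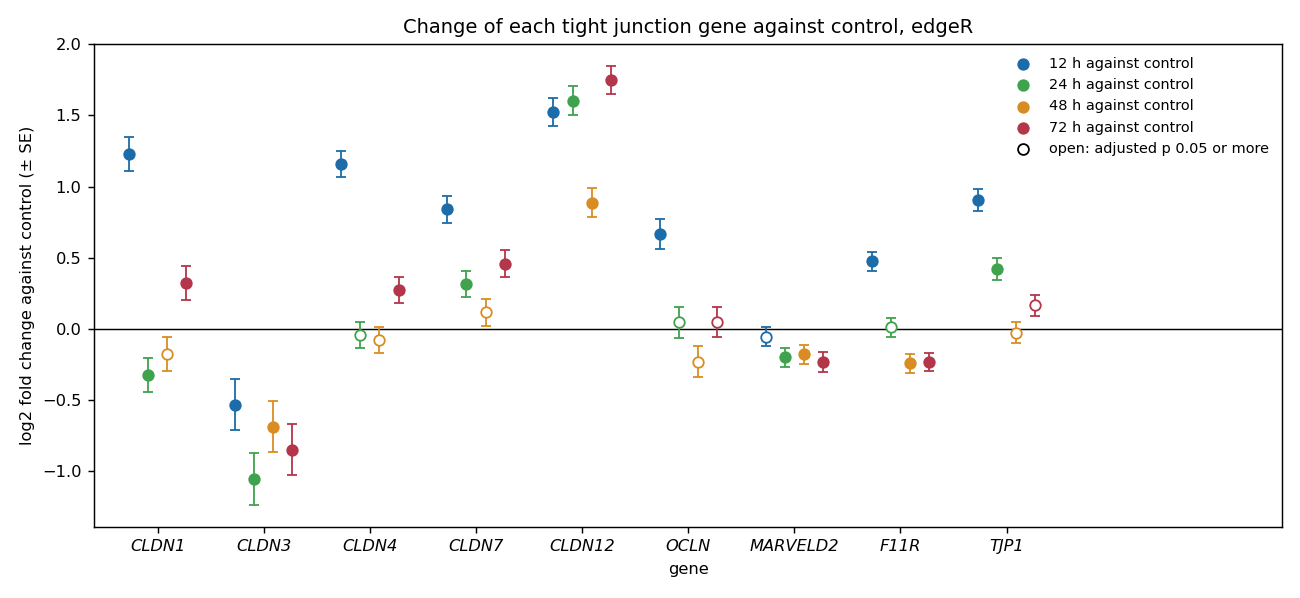
Log2 fold change against the control (y axis) for each of the 9 genes (x axis) at the 4 times of EGF-treatment, as the edgeR estimate with its standard error (bars), 4 libraries per group. Filled points passed an adjusted p of 0.05. CLDN12 lies above 0 at all times, CLDN3 below 0 at all times, and most others are highest at 12 h.

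How the libraries are scaled bears on these counts. With scaling by library size only, the median of all genes at 12 h moved from -0.05 to -0.34, and the share of called genes that were higher fell from 47.4% to 30.2%. At 24 h against the control that share went from 49.6% to 36.3%, for 24 h against 12 h it went from 51.9% to 68.6%, for 48 h against 24 h it went from 51.5% to 71.8%, and for 72 h against 48 h it went from 50.0% to 33.8%. With this scaling the 9 genes at 12 h gave 7 higher and 2 lower, the second being MARVELD2, and from 24 to 48 h they gave 2 higher (CLDN1, CLDN3) and 2 lower (CLDN12, TJP1). With factors recovered from the deposited normalized values, which differ from gene to gene, 2 of the 9 were called at 48 h (CLDN12 higher, CLDN3 lower) and 4 at 72 h (CLDN7, CLDN12 and TJP1 higher, CLDN3 lower). With these factors, 38.9% of the genes called from 12 to 24 h were higher, against 51.9% in the main fit.

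Of the 9 genes, 8 matched promoter windows of RefSeq (GRCh38.p14, 13 windows), and F11R did not. Each window was searched from 250 bases before to 30 after the start, on both strands, for CAGGTG (the E-box bound by SNAI and ZEB repressors), AACCGGTT (the grainyhead-like, GRHL, site) and TGANTCA (the AP-1 site). Among 35116 windows of all genes, 19.2% hold CAGGTG, 0.128% hold AACCGGTT and 7.35% hold TGANTCA. The windows shown are those of CLDN3 and CLDN4, which are neighbours on chromosome 7 and moved differently, of CLDN7, which has the most E-boxes of the 8 genes searched, and of CLDN12, the gene with the largest rise. Capitals mark matches.
CLDN3, chr7:73770241-73770520, minus strand: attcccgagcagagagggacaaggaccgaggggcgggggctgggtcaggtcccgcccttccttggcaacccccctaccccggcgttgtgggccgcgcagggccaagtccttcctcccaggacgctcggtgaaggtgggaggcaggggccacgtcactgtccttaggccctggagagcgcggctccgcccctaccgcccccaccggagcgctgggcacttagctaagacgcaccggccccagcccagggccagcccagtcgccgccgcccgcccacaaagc
CLDN4, chr7:73830746-73831025, plus strand: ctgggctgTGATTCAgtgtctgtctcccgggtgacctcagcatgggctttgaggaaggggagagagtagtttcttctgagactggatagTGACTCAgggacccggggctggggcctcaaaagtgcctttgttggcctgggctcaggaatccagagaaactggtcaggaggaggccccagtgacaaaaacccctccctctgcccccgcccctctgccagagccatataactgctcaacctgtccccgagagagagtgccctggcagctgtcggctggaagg
CLDN7, chr17:7262449-7262728, minus strand: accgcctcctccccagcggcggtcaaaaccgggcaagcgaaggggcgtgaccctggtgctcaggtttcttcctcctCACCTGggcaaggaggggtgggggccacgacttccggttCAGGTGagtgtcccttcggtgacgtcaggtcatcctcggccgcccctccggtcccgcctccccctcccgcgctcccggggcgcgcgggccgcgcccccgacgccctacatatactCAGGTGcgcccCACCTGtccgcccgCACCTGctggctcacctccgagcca
CLDN12, chr7:90403211-90403490, plus strand: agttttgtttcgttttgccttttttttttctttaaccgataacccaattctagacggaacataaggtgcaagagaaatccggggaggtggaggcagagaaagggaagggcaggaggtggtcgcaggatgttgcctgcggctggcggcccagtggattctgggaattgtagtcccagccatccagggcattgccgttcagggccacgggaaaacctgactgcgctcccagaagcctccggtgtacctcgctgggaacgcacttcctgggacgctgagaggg
The CLDN7 window holds 5 matches to CAGGTG or its complement, a number that 0.0940% of all windows reach, and the window of its other start holds none. The CLDN4 window holds 2 matches to TGANTCA, which 0.473% of all windows reach, and the CLDN3 and CLDN12 windows hold none of the 3 motifs. Each of both OCLN windows holds 1 CAGGTG, 33 and 133 bases before its start, 1 of the 4 TJP1 windows holds 1, and the windows of CLDN1 and MARVELD2 hold no match. A match here describes the letters only.

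The claudins CLDN1, CLDN4 and CLDN7 shared a peak at 12 h. CLDN1 (ENSG00000163347), a barrier-forming claudin, lies on chromosome 3 (hg38, 190305701 to 190322475, minus strand). Its level in the 4 control libraries was 55.9, 51.7, 73.9 and 65.4 CPM, and in the 12 h libraries 141, 133, 158 and 147 CPM. It was 35.5, 52.4, 51.2 and 58.1 CPM at 24 h, 49.6, 50.9, 60.8 and 56.9 CPM at 48 h, and 83.1, 81.2, 73.0 and 71.8 CPM at 72 h. Every 12 h library stood above every other library, whereas the 24, 48 and 72 h libraries overlapped the controls. The rise at 12 h was 2.35-fold (log2 fold change 1.23 ± 0.12 SE, adjusted p = 2.99e-09), and the fall from 12 to 24 h was 2.94-fold (-1.56 ± 0.12, adjusted p = 5.17e-10). CLDN1 was then slightly below the control at 24 h (-0.32 ± 0.12, adjusted p = 0.0241), was not called at 48 h (-0.18), and exceeded the control at 72 h (0.33 ± 0.12, adjusted p = 0.0212), after a rise from 48 h of 1.42-fold (adjusted p = 0.00203). The 24 h call was lost without control replicate 3 (-0.23), control replicate 4 (-0.29) or EGF 24 h replicate 1 (-0.19), and the 72 h call without control replicate 1 (0.28) or 2 (0.25) or EGF 72 h replicate 1 (0.30) or 2 (0.30). Both calls were also lost without the 4 libraries farthest apart (-0.30 and 0.35) and with the factors per gene (-0.33 and 0.32), the 24 h call with only the 8 libraries compared (-0.33), and the 72 h call with library size only (0.25), which added a rise from 24 to 48 h (0.31).

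CLDN4 (ENSG00000189143; chromosome 7, 73799542 to 73832693, plus strand), a barrier claudin also known as a receptor of the Clostridium perfringens enterotoxin, followed the same course. The controls were at 45.2, 55.3, 44.9 and 50.2 CPM and the 12 h libraries at 120, 113, 98.7 and 106 CPM. The 24 h libraries had 40.8, 49.6, 48.3 and 51.7 CPM, the 48 h libraries 47.4, 51.7, 42.4 and 44.2 CPM, and the 72 h libraries 67.5, 57.5, 56.0 and 54.9 CPM. Only the 12 h libraries stood clear of all others, and 3 of the 4 libraries at 72 h lay above the highest control. CLDN4 was 2.24-fold higher at 12 h (1.16 ± 0.09, adjusted p = 6.92e-11) and 2.30-fold lower at 24 h than at 12 h (-1.20 ± 0.09, adjusted p = 3.33e-10). It did not differ detectably from the control at 24 h (-0.04, adjusted p = 0.729) or 48 h (-0.08, adjusted p = 0.524), and was 1.21-fold higher at 72 h (adjusted p = 0.0127). The 72 h call was lost without EGF 72 h replicate 1 (0.21), with library size only (0.20) and with the factors per gene (0.23).

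CLDN7 (ENSG00000181885; chromosome 17, 7259903 to 7263983, minus strand), a claudin also found along the basolateral membrane, had the highest level per length of the 9 genes, with 73.0 ± 11.3 CPM per kb of exon in the control. The control libraries held 180, 219, 150 and 179 CPM, and the 12 h libraries 355, 323, 307 and 318 CPM. The later libraries held 217, 239, 217 and 232 CPM at 24 h, 213, 221, 173 and 182 CPM at 48 h, and 272, 222, 252 and 254 CPM at 72 h. All 12 h libraries were above the rest, all 72 h libraries above the controls, and the 48 h libraries split into a higher and a lower pair. CLDN7 was 1.79-fold higher at 12 h (0.84 ± 0.09, adjusted p = 2.92e-08), 1.24-fold at 24 h (adjusted p = 0.00601) and 1.37-fold at 72 h (0.46 ± 0.09, adjusted p = 0.000182), and was not called at 48 h (0.12 ± 0.09, adjusted p = 0.330). The 24 h call was lost with library size only (0.17), and without control replicate 2 the 48 h value became a call (0.22). The fall from 24 to 48 h (-0.20) became a call without EGF 48 h replicate 2 (-0.26), without the 4 libraries farthest apart (-0.20) and with the factors per gene (-0.23). A gene model on the same strand, AC003688.1, shares 10.8% of the exon bases of CLDN7 and had at most 27 counts in a library.

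CLDN12 (ENSG00000157224; chromosome 7, 90383721 to 90513402, plus strand), a claudin without the C-terminal PDZ-binding motif by which most claudins attach to ZO proteins, was called as higher at every time. Control libraries held 29.5, 27.9, 37.3 and 32.2 CPM. EGF libraries held 86.7, 91.3, 94.5 and 93.3 CPM at 12 h, 82.8, 95.4, 102 and 105 CPM at 24 h, 56.4, 47.7, 65.5 and 65.1 CPM at 48 h, and 102, 115, 104 and 106 CPM at 72 h. All 16 EGF libraries lay above all controls, with the 48 h libraries between the controls and the other EGF libraries. The increases were 2.88-fold at 12 h (1.53 ± 0.10, adjusted p = 2.50e-12), 3.04-fold at 24 h (1.60 ± 0.10, adjusted p = 1.63e-12), 1.85-fold at 48 h (0.89 ± 0.10, adjusted p = 1.04e-07) and 3.36-fold at 72 h (1.75 ± 0.10, adjusted p = 2.69e-13). CLDN12 did not change detectably from 12 to 24 h (0.08, adjusted p = 0.513), fell 1.64-fold from 24 to 48 h (adjusted p = 1.85e-06) and rose 1.82-fold from 48 to 72 h (adjusted p = 2.46e-07). GTPBP10, which shares 5.15% of the exon bases of CLDN12 on the same strand, changed by -0.88 at 12 h and 1.02 at 48 h, and CDK14, which shares 2.98%, by 0.38 and 0.39.

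CLDN3 (ENSG00000165215; chromosome 7, 73768997 to 73770270, minus strand), a barrier claudin in 1 exon, lies 29272 bases from CLDN4 and on the opposite strand, and was the 1 claudin of the 9 genes called as lower at every time. The controls held 18.2, 24.5, 12.7 and 18.9 CPM, and the 12 h libraries 12.6, 13.0, 12.6 and 13.1 CPM. The 24 h libraries had 9.44, 8.87, 9.49 and 8.05 CPM, the 48 h libraries 13.6, 14.7, 8.81 and 9.25 CPM, and the 72 h libraries 11.1, 6.88, 11.7 and 11.5 CPM. The controls were widely spread, so that only the 24 and 72 h libraries lay wholly below them, and at 12 and 48 h control replicate 3 overlapped. CLDN3 was 1.45-fold lower at 12 h (-0.53 ± 0.18, adjusted p = 0.0110), 2.07-fold at 24 h (-1.05 ± 0.18, adjusted p = 3.68e-05), 1.61-fold at 48 h (-0.69 ± 0.18, adjusted p = 0.00306) and 1.80-fold at 72 h (-0.85 ± 0.18, adjusted p = 0.000323). The 12 h call was lost without control replicate 2 (-0.37) and with no filter on low counts (-0.50). The fall from 12 to 24 h (-0.52, adjusted p = 0.0231) was lost without EGF 24 h replicate 4 (-0.47), with library size only (-0.38) and with no filter (-0.56), and a rise from 24 to 48 h (0.36) became a call without EGF 48 h replicate 3 (0.48) and with library size only (0.52).

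**Figure D2:**
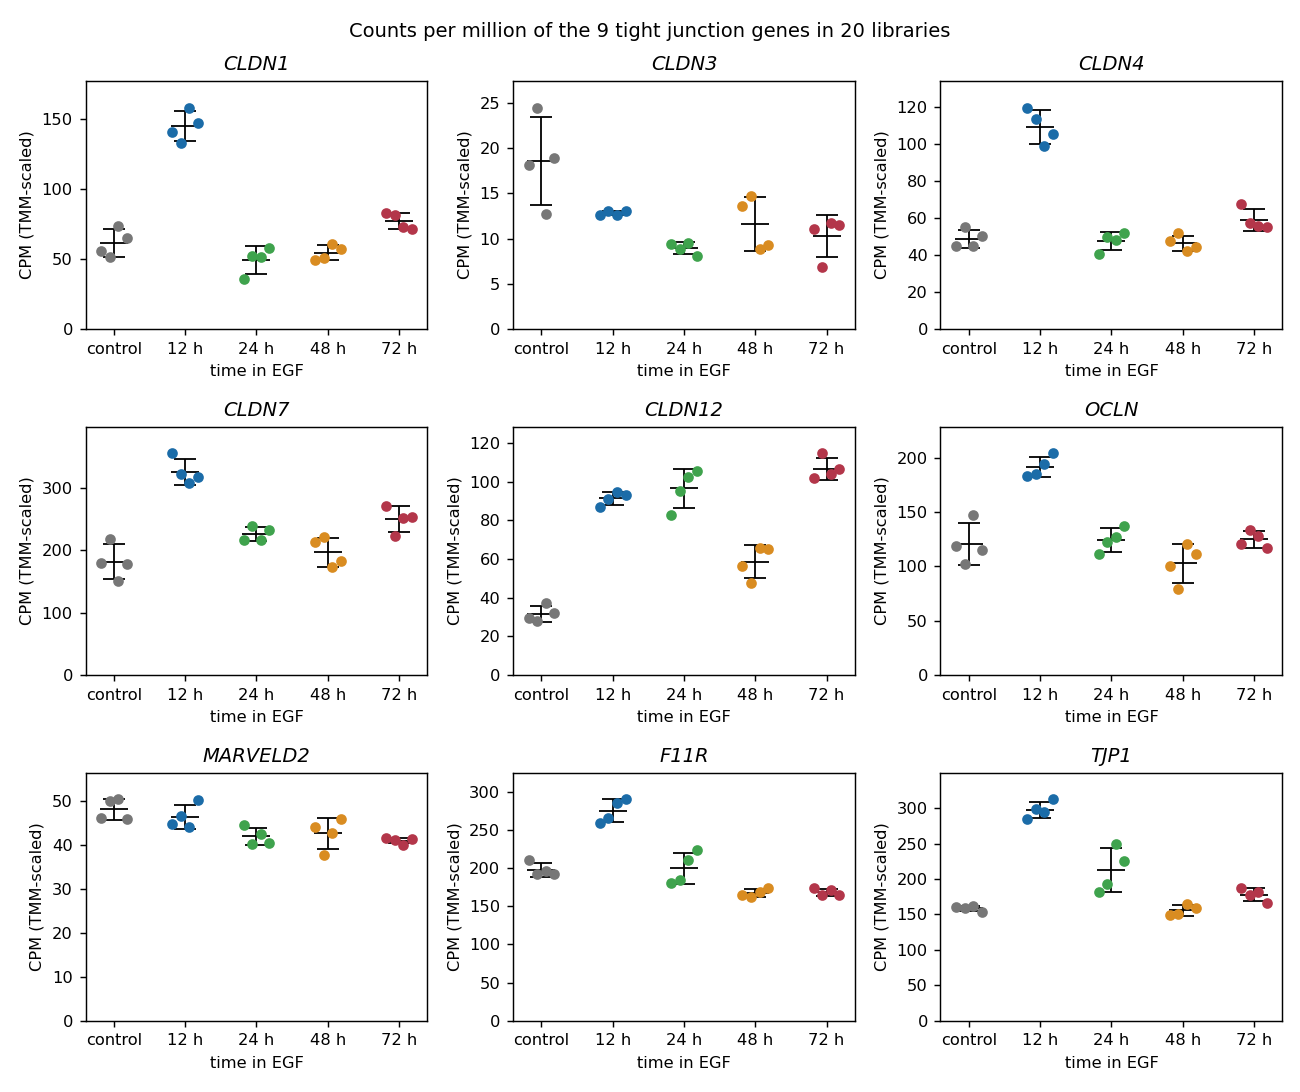
CPM after TMM scaling (y axis, from 0) of each of the 9 genes in the control and at each time of EGF-treatment (x axis). Points are the 4 libraries of a group, placed by replicate number from left to right, and the bars give mean ± SD. CLDN12 is above the controls in all 16 EGF libraries, CLDN1, CLDN4 and TJP1 stand out at 12 h, and the CLDN3 controls range from 12.7 to 24.5 CPM.

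In the order of group means, the 12 h group of CLDN1, CLDN4 and CLDN7 was first and differed from the second group, EGF 72 h, with no overlap (adjusted p = 4.79e-07 for CLDN1, 9.59e-09 for CLDN4 and 0.000959 for CLDN7). EGF 72 h in turn differed from the control, the next in order, for CLDN1 (adjusted p = 0.0212) and CLDN4 (adjusted p = 0.0127). The control, 48 h and 24 h groups of CLDN1, and the control, 24 h and 48 h groups of CLDN4, could not be separated from their neighbours in the order. For CLDN7 none of the neighbours below the first place could be separated, in the order EGF 72 h, 24 h, 48 h and control. The CLDN12 order was EGF 72 h, 24 h and 12 h, whose neighbours could not be told apart, then EGF 48 h (adjusted p = 3.08e-06 against 12 h), then the control. For CLDN3 the only neighbours that differed were the control and EGF 12 h. TJP1 ran from EGF 12 h to 24 h to 72 h with a difference at each step (adjusted p = 1.11e-05 and 0.00936), then to the control and EGF 48 h, which could not be separated from their neighbours. OCLN and F11R had EGF 12 h first, apart from all others, and F11R had EGF 24 h and the control above EGF 72 h and 48 h, with a difference between the control and EGF 72 h.

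CLDN10 held the largest share of the claudin counts in the control and CLDN7 the largest mean share in every EGF group. At 48 h the ranges of the libraries overlapped, with 29.9 to 37.3% for CLDN7 and 29.5 to 33.4% for CLDN10, and CLDN10 had more counts than CLDN7 in replicates 3 and 4. Among 24 claudin genes in the tables, 11 passed the filter on low counts, and the summed level of all 24 was 685 ± 14.5 CPM in the control and 831 ± 20.8, 580 ± 29.6, 590 ± 8.35 and 677 ± 18.1 CPM after 12, 24, 48 and 72 h. CLDN10, a claudin that forms ion-selective paracellular pores and is not among the 9 genes, made up 44.0 ± 3.7% of the claudin counts in the control and 13.1 ± 0.46%, 18 ± 2.5%, 31.3 ± 1.9% and 19.3 ± 1.3% at 12, 24, 48 and 72 h. CLDN7 went from 26.6 ± 4.5% in the control to 39.2 ± 1.6%, 39.0 ± 1.3%, 33.4 ± 3.7% and 36.9 ± 2.2%. CLDN12 went from 4.63 ± 0.56% to 11 ± 0.65%, 16.6 ± 1.2%, 9.95 ± 1.5% and 15.8 ± 1.2%. Per kb of exon the shares of CLDN10 and CLDN7 were 39.2% and 32.1% in the control, and 12.1% and 49.0% at 12 h, 16.3% and 48.1% at 24 h, 28.3% and 40.9% at 48 h, and 17.9% and 46.3% at 72 h. On that scale the control ranges overlapped, with 33.9 to 42.8% for CLDN10 and 26.7 to 38.3% for CLDN7. The 48 h ranges per kb did not overlap, with 26.1 to 30.7% for CLDN10 and 37.4 to 44.7% for CLDN7. These shares were not tested. DZIP1 overlaps 46.1% of the exon bases of CLDN10 on the opposite strand, with 246 to 535 counts per library against 1505 to 7649 of CLDN10, and whether counting used strand is not given in the sources used here.

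**Figure D3:**
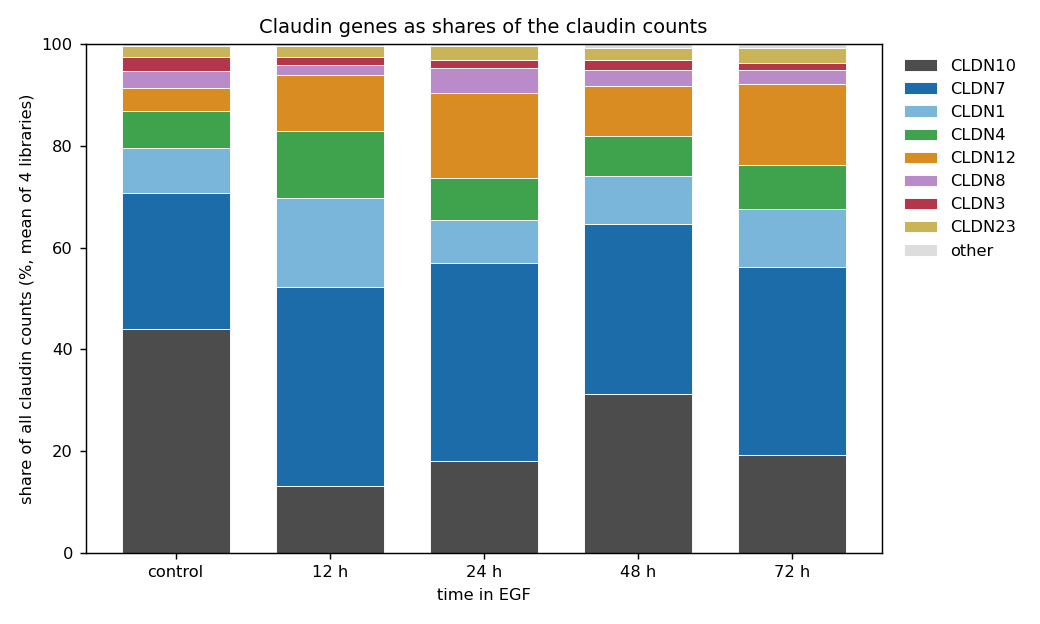
Share of all claudin counts (y axis, percent, mean of 4 libraries) held by each claudin gene in the control and at each time of EGF-treatment (x axis), as stacked bars that sum to 100%. CLDN10 is the largest part in the control at 44.0%, and CLDN7 has the largest mean in each EGF group, with overlapping ranges at 48 h.

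OCLN (occludin, ENSG00000197822; chromosome 5, 69492292 to 69558104, plus strand) rose at 12 h and was otherwise close to the control. Control libraries held 119, 102, 147 and 115 CPM, and 12 h libraries 184, 185, 194 and 204 CPM. Later libraries held 111, 122, 127 and 137 CPM at 24 h, 100, 78.9, 120 and 111 CPM at 48 h, and 121, 134, 128 and 117 CPM at 72 h. The 12 h libraries stood above all others, and the remaining groups overlapped. OCLN was 1.59-fold higher at 12 h (0.67 ± 0.11, adjusted p = 6.68e-06), fell 1.54-fold from 12 to 24 h (adjusted p = 3.76e-05), and was not called against the control at 24 h (0.05), 48 h (-0.23, adjusted p = 0.0837) or 72 h (0.05). The fall from 24 to 48 h (-0.28, adjusted p = 0.0362) and the rise from 48 to 72 h (0.28, adjusted p = 0.0454) were near the threshold. The first was lost without EGF 24 h replicate 2 (-0.29), 3 (-0.27) or 4 (-0.23) or EGF 48 h replicate 1 (-0.27) or 2 (-0.17), and the second without EGF 48 h replicate 1 (0.27) or 2 (0.17) or EGF 72 h replicate 1 (0.31), 2 (0.25) or 3 (0.27), and both with library size only (-0.12 and 0.19), with the factors per gene (-0.23 and 0.22) and with only the 8 libraries compared (-0.26 and 0.28). The first was also lost with at least 10 counts in every library (-0.24) and the second with no filter (0.28). At 48 h against the control OCLN became a call without control replicate 2 (-0.30) or EGF 48 h replicate 3 (-0.31).

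MARVELD2 (ENSG00000152939; chromosome 5, 69415065 to 69444330, plus strand) lies 47962 bases from OCLN on the same strand and had a flatter course. It was at 46.2, 50.2, 50.5 and 46.1 CPM in the controls and at 44.9, 46.6, 44.1 and 50.3 CPM at 12 h. It was at 44.5, 40.3, 42.6 and 40.6 CPM at 24 h, at 44.2, 37.9, 42.8 and 45.9 CPM at 48 h, and at 41.5, 41.3, 40.2 and 41.3 CPM at 72 h. The 12 h libraries overlapped the controls, and the 24, 48 and 72 h libraries all lay below the lowest control by a small margin. MARVELD2 was 1.15-fold lower at 24 h (-0.20 ± 0.07, adjusted p = 0.0141), 1.13-fold at 48 h (-0.18 ± 0.07, adjusted p = 0.0343) and 1.17-fold at 72 h (-0.23 ± 0.07, adjusted p = 0.00465), and was not called at 12 h (-0.05 ± 0.07, adjusted p = 0.484). Without the 4 libraries farthest apart the 24 and 48 h calls were lost (-0.13 and -0.04), with the factors per gene all 3 were lost (-0.21, -0.12 and -0.20), and the 48 h call was lost without control replicate 2 (-0.16) or 3 (-0.15) or EGF 48 h replicate 2 (-0.12) or 3 (-0.18). The 24 and 48 h calls were also lost with no filter (-0.20 and -0.18) and with only the 8 libraries compared (-0.20 and -0.18), and the 48 h call with at least 10 counts in every library (-0.14) and with library size only (-0.16), where MARVELD2 was called as lower at 12 h (-0.34). The step from 12 to 24 h (-0.14, adjusted p = 0.0745) became a call without EGF 24 h replicate 1 (-0.18), without the 4 libraries farthest apart (-0.15), with DESeq2's size factors (-0.16) and with the DESeq2 Wald test (-0.17). In the order of its group means no neighbours could be separated.

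F11R (ENSG00000158769; chromosome 1, 160995211 to 161021348, minus strand) rose at 12 h and lay below the control from 48 h on. It was at 211, 193, 196 and 191 CPM in the controls and at 259, 266, 285 and 290 CPM at 12 h. It was at 180, 184, 210 and 223 CPM at 24 h, at 165, 163, 168 and 174 CPM at 48 h, and at 173, 165, 171 and 164 CPM at 72 h. The 12 h libraries were above and the 48 and 72 h libraries below all controls, whereas the 24 h libraries fell on both sides. F11R was 1.39-fold higher at 12 h (0.48 ± 0.07, adjusted p = 7.50e-07), did not differ detectably at 24 h (0.01, adjusted p = 0.884), and was 1.18-fold lower at 48 h (-0.24 ± 0.07, adjusted p = 0.00418) and 1.17-fold lower at 72 h (-0.23 ± 0.07, adjusted p = 0.00378). A protein-coding gene model on the same strand, AL591806.2, shares 36.6% of the exon bases of F11R, had 290 to 993 counts per library, and changed by 1.05, 0.50, 0.62 and 0.51 at 12, 24, 48 and 72 h. With the counts of both summed, the values for F11R at the 4 times were 0.55, 0.06, -0.13 and -0.13, and the 48 h call was lost. With the factors per gene both late calls were lost (-0.10 and -0.08), and the fall from 24 to 48 h (-0.25, adjusted p = 0.00255) was lost with those factors (-0.17) and with library size only (-0.10).

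TJP1 (ENSG00000104067; chromosome 15, 29699367 to 29968865, minus strand) rose at 12 h, was less raised at 24 h and lay near the control at 48 h. The controls were close together at 160, 159, 162 and 154 CPM, and the 12 h libraries held 284, 298, 294 and 312 CPM. The level was 182, 193, 250 and 225 CPM at 24 h, 149, 150, 165 and 159 CPM at 48 h, and 187, 178, 181 and 166 CPM at 72 h. All libraries at 12, 24 and 72 h lay above all controls, and the 48 h libraries fell on both sides of them. TJP1 was 1.87-fold higher at 12 h (0.90 ± 0.08, adjusted p = 2.25e-10) and 1.34-fold at 24 h (0.42 ± 0.08, adjusted p = 4.62e-05), with falls of 1.40-fold from 12 to 24 h (adjusted p = 1.11e-05) and 1.36-fold from 24 to 48 h (adjusted p = 3.66e-05). At 48 h it did not differ detectably from the control (-0.03, adjusted p = 0.807). The higher level at 72 h missed the threshold (0.17 ± 0.08, adjusted p = 0.0628), as did the step from 48 to 72 h (0.19, adjusted p = 0.0526). Both became calls without EGF 72 h replicate 4 (0.20 and 0.22), with DESeq2's size factors (0.19 and 0.21), with the DESeq2 Wald test (0.19 and 0.21), with at least 10 counts in every library (0.22 and 0.21), with only the 8 libraries compared (0.17 and 0.19) and with the factors per gene (0.27 and 0.20), and the step also without EGF 48 h replicate 3 (0.22).

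The 9 genes differed in how tightly their replicates agreed. The coefficient of variation within a group ranged up to 26% for CLDN3 in the control and 19.7% for CLDN1 at 24 h, and for MARVELD2 it stayed between 1.53% and 8.11%. Control replicate 2 had the highest CLDN3, CLDN4 and CLDN7 of its group and the lowest CLDN1, CLDN12 and OCLN, and control replicate 3 had the lowest CLDN3, CLDN4 and CLDN7 and the highest CLDN1, CLDN12 and OCLN. At 48 h, replicate 2 was likewise highest in CLDN3, CLDN4 and CLDN7 and lowest in CLDN12 and OCLN. Mitochondrial genes held 12.6% of the counts in control replicate 2 and 9.59% in control replicate 3, and 16.9% and 9.83% in replicates 2 and 3 at 48 h. Their part in these differences was not tested. Without those 4 libraries, the calls among the 9 genes numbered 8 at 12 h and 4 at 24 h, then 3 and 6 at 48 and 72 h.

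The other genes of the tight junction were taken from a list of 56, of which 54 are in the tables and 40 passed the filter, 14 of them transmembrane and 26 plaque or signaling proteins. Against the control, 16 of the 40 were higher and 15 lower at 12 h, 13 and 15 at 24 h, 7 and 13 at 48 h, and 15 and 16 at 72 h. Over all genes tested, 32.9% were higher and 36.5% lower at 12 h, 29.2% and 29.6% at 24 h, 24.0% and 21.8% at 48 h, and 30.6% and 31.0% at 72 h. The median log2 fold changes of the 40 were 0.18, 0.07, -0.17 and 0.00, against -0.05, -0.01, 0.01 and -0.01 over all genes. Among the transmembrane genes alone, 4 were higher and 6 lower at 12 h, and among the plaque genes 12 were higher and 9 lower.

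The 8 genes of this list with the largest changes include membrane proteins, angiomotins, and scaffolds. BVES, a Popeye-domain membrane protein found at epithelial junctions, rose from 11.8 ± 2.0 CPM to 49.2 ± 4.2, 65.1 ± 1.5, 37.8 ± 7.6 and 64.3 ± 2.3 CPM at 12, 24, 48 and 72 h, a 5.49-fold rise at 24 h (2.46 ± 0.12, adjusted p = 2.18e-14). CLDN10 fell from 302 ± 31.2 CPM to 109 ± 4.23, 104 ± 9.73, 185 ± 11.2 and 131 ± 6.04 CPM, 2.90-fold at 24 h (-1.54 ± 0.08, adjusted p = 2.71e-14). CLDN15, a cation-channel claudin, was low throughout, with 0.633 ± 0.19 CPM in the control and a rise to 1.83 ± 0.30 CPM by 72 h (1.54 ± 0.31, adjusted p = 0.000165). Of the angiomotins, scaffolds that bind Hippo pathway proteins at junctions, AMOT fell 5.07-fold at 12 h (-2.34 ± 0.07, adjusted p = 1.28e-18) and AMOTL1 and AMOTL2 rose 3.60-fold and 3.16-fold (1.85 ± 0.09, adjusted p = 1.29e-14; 1.66 ± 0.09, adjusted p = 4.07e-14). AMOT stayed lower and AMOTL1 higher at all 4 times, whereas AMOTL2 was called at 12 and 72 h and not at 24 h (0.12) or 48 h (0.15). ARHGEF2, the RhoA exchange factor GEF-H1, rose 3.75-fold at 12 h (1.91 ± 0.09, adjusted p = 7.42e-15) and was still 2.50-fold higher at 72 h. MAGI3, a PDZ scaffold, fell 2.79-fold at 12 h (-1.48 ± 0.07, adjusted p = 1.37e-14) and was lower at all 4 times.

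Regulators of epithelial junction genes were a list of 17 transcription factors, proteases and partners, of which 14 passed the filter. At 12 h, 11 were higher and 3 lower, at 24 h 6 and 3, and at 48 and 72 h 7 and 4, where 69.4%, 58.8%, 45.8% and 61.6% of all genes were called in either direction. Their median log2 fold changes were 0.46, 0.20, 0.28 and 0.28, against -0.05, -0.01, 0.01 and -0.01 over all genes. GRHL2 and GRHL3, transcription factors that activate junction genes in epithelia, were lower at all 4 times. GRHL1, of the same family, did not have a lower mean at any time. Its means were 62.0 CPM in the control and 70.4, 72.4, 69.2 and 63.4 CPM at 12, 24, 48 and 72 h. GRHL3 went from 18.7 ± 2.6 CPM to 9.84 ± 1.4, 4.74 ± 0.58, 3.72 ± 0.23 and 5.33 ± 0.37 CPM, and GRHL2 from 43.5 ± 6.7 CPM to 22.9 ± 2.0, 27.0 ± 1.3, 35.9 ± 4.0 and 24.6 ± 1.8 CPM. KLF4 and KLF5, Krüppel-like factors of epithelia, were higher at all 4 times, with KLF5 going from 135 ± 25.5 CPM to 450 ± 12.2 CPM at 12 h. SNAI1, an E-box-binding repressor of CLDN and OCLN genes, had 1.56, 2.19, 1.07 and 1.11 CPM in the controls, 6.31, 5.67, 6.52 and 5.79 CPM at 12 h, and was called as higher at all 4 times (2.03, 1.04, 1.97 and 1.33). ZEB1, another such repressor, had 2, 0, 1 and 0 counts in the controls and 7, 5, 4 and 6 at 12 h, and 15, 13, 11 and 9 at 72 h, so that it was near the limit of detection in each group. SNAI2 had no count in any library, and ZEB2 and TWIST1 did not pass the filter.

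**Figure D4:**
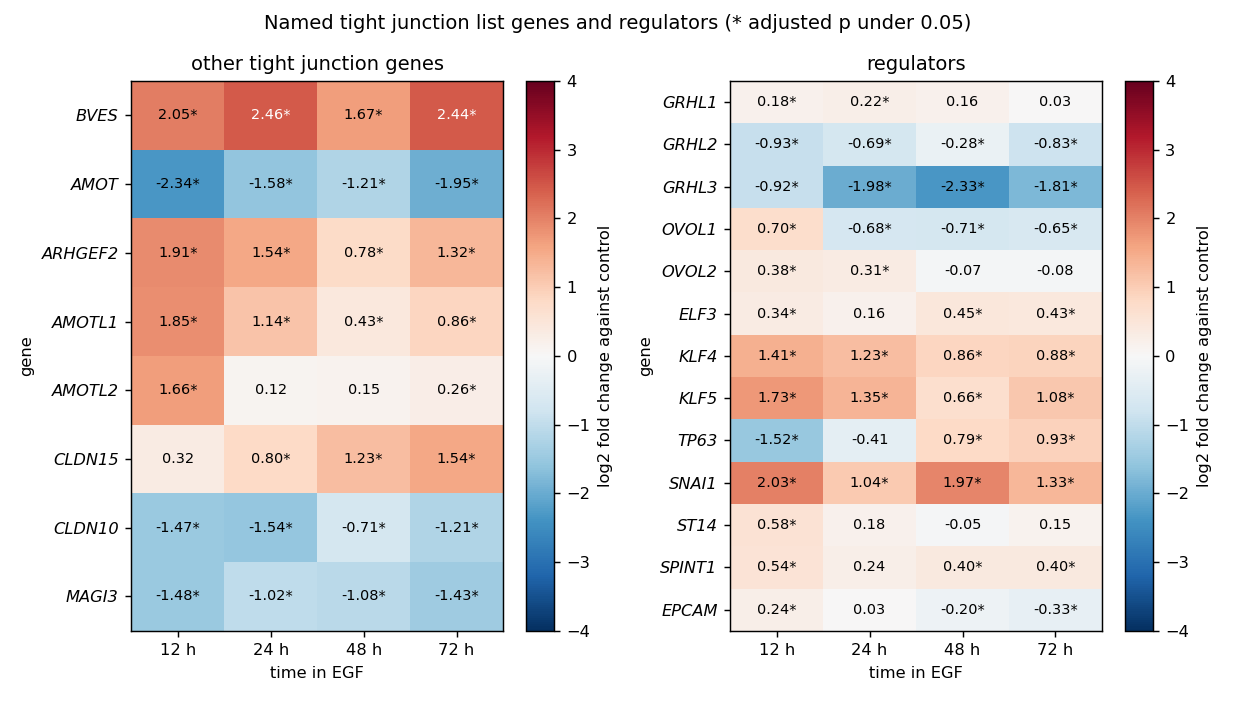
Log2 fold change against the control (color and printed value) at each time of EGF-treatment (x axis) for the 8 named genes of the wider tight junction list (left) and 13 of the 14 regulators that passed the filter (right), without ZEB1. A star marks an adjusted p under 0.05. BVES is red and AMOT and MAGI3 blue at every time, and GRHL2 and GRHL3 are blue beside red KLF4, KLF5 and SNAI1.

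Among 13872 genes with at least 1 CPM on average, the time course most like that of each of the 9 genes was found by the mean absolute difference of the 4 log2 fold changes against the control. The nearest were TRPM2 and KLF16 for CLDN1 (mean differences 0.10 and 0.14), GRWD1 and KLF16 for CLDN4 (0.06 and 0.07), SLC12A8 and PCGF1 for CLDN7 (0.04 and 0.04), and CCDC137 and ISG20L2 for OCLN (0.03 and 0.04). For CLDN12 they were ITGB3 (0.06), an integrin subunit, and VGF (0.09), a secreted neuropeptide precursor. ACVR1B and TAX1BP3 were nearest to CLDN3 (0.05 and 0.06), ANKRD27 and ZMYND19 to TJP1 (0.02 and 0.02), RRN3 and AKT1 to F11R (0.02 and 0.02), and AC016596.2 and RPS27 to MARVELD2 (0.02 and 0.02). All these likenesses are over 4 differences that share the same controls.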

How the data were processed

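RNA-seq of MDA-MB-468 cells was performed by the authors with 4 biological replicates for each of 5 groups. RNA was isolated with the RNeasy kit, library preparation followed the Corall mRNA protocol of Lexogen, and single-end sequencing was done on an Illumina instrument. Per the labels, the build was hg38 and DESeq2 was used. The aligner, the annotation, the use of strand and the handling of molecular identifiers are not given in the sources used here. The authors deposited 10 tables, 1 per pair of groups, that hold the same estimated counts, rounded to whole numbers, for 60271 genes. The normalized values deposited beside them are a score in each library with about the size of the counts, and were used only as an alternative scaling. Their fold changes and p-values from DESeq2 were not used.

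Counts were analyzed with edgeR 4.0.16 in R 4.3.3. Genes were kept by filterByExpr (16522 genes), libraries were scaled by TMM, and 1 model with a mean per group was fitted to all 20 libraries, with the robust quasi-likelihood test, a prior count of 0.125 and Benjamini-Hochberg adjustment over all genes. Comparisons were each time against the control and against the time before, and all pairs of groups for the order of means. On simulated counts for 12 h against the control with 16121 genes tested, 39 of 49 genes with a 2-fold rise, 39 of 49 with a 0.5-fold change, 32 of 49 with a 1.5-fold and 49 of 50 with a 4-fold rise were called, and 8 of 15924 unchanged genes. Of those 16121 genes, 15924 were unchanged, whereas 69.4% of all genes were called at 12 h against the control in the data. Calling with so many changed genes was not tested. Totals were 15611961 to 25856953 counts per library. Counting error was not set against the spread between replicates for each of the 9 genes. CLDN3 had the fewest counts, 121 to 582 per library, and its variation within a group was as low as 2.05%. Replicate numbers were not taken to pair the samples (r of same-numbered deviations -0.24 to 0.35 over 40 pairs).

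Alternatives were library size only, DESeq2's size factors, genes with 1 count or more, genes with 10 counts or more in all libraries, a replicate block, only the 8 libraries compared, the DESeq2 1.42.0 Wald test, and leaving out each library. Factors per gene from the normalized values (11782 genes), leaving out 4 libraries, and summing F11R with the gene that shares its exons were added after the data were seen. Gene positions and exon lengths, with the exons of all transcripts merged, come from GENCODE 29, in which 58036 of the IDs were found, and promoter windows from RefSeq. Named were all 9 genes, the 8 genes of the wider list with the largest change against the control among those called, with at least 1 CPM on average and no overlap with the controls, the regulators, and the 2 nearest time courses of each gene. Genes that share exons were named beside them after their values were seen. The members and the lists were chosen with earlier results of these data known.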

Additional observations from a re-analysis of the deposited data

Results flagged for a closer look

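CLDN3 at 72 h had 1 library apart from its group, with 6.88 CPM in replicate 2 and 11.1 to 11.7 CPM in the other 3 libraries, a gap of 0.870 of the range of the group. It was 1 of 45 groups of 4 libraries examined, of which chance alone flags about 1 in 20. CLDN1 was the gene of the 9 whose calls against the control turned direction between successive times, with 1.23 at 12 h and -0.32 at 24 h. The 24 h libraries overlapped the controls (adjusted p = 0.0241, edgeR), and that call was lost in 3 of 8 fits without 1 library. The difference between 12 and 24 h was tested and was -1.56 on the log2 scale (adjusted p = 5.17e-10, edgeR), with all 4 libraries at 24 h below all 4 at 12 h. That test does not show whether CLDN1 lay below the control at 24 h.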

How the results depend on the processing

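Alternatives were run for the log2 fold changes of the 9 genes in 7 comparisons, for the counts of genes called, and for the claudin shares. Of 1071 log2 fold changes computed under them, 958 kept their direction and side of the threshold, 59 kept the direction and lost their call, 31 gained one, and 23 changed sign, and all values that changed sign were uncalled. The 7 rises at 12 h and the calls of CLDN12 against the control were kept under every alternative listed here. With library size only, the sign changed for OCLN at 24 h (-0.097) and 72 h (-0.025), F11R at 24 h (-0.13) and from 48 to 72 h (-0.078), and CLDN4 from 24 to 48 h (0.12). With at least 10 counts in every library it changed for TJP1 at 48 h (0.012) and CLDN4 from 24 to 48 h (9.25e-05), with the factors per gene for TJP1 at 48 h (0.065), and without the 4 libraries farthest apart for MARVELD2 at 12 h (0.013), F11R at 24 h (-0.012) and F11R from 48 to 72 h (-0.011). Leaving out 1 library gave ranges that include 0 for CLDN4 (-0.081 to 0.032), OCLN (-0.027 to 0.16) and F11R (-0.044 to 0.062) at 24 h, OCLN at 72 h (-0.025 to 0.16), CLDN4 (-0.11 to 0.0054) and MARVELD2 (-0.017 to 0.074) from 24 to 48 h, and F11R from 48 to 72 h (-0.0043 to 0.029). The causes were not tested.

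With the factors per gene, the genes called among the 9 went from 4 to 2 at 48 h and from 7 to 4 at 72 h, and those of the wider tight junction list from 31 to 18 at 72 h and from 19 to 12 between 24 and 48 h. That fit tests 11782 genes. Leaving out 1 library, 7 to 8 of the 9 genes were called at 12 h, 5 to 6 at 24 h, 3 to 5 at 48 h and 5 to 8 at 72 h. Per kb of exon, the claudin share of CLDN10 in the control was 39.2%, and that of CLDN7 was 49.0%, 48.1%, 40.9% and 46.3% at 12, 24, 48 and 72 h. With a replicate block, 8, 6, 5 and 8 of the 9 genes were called at the 4 times, and CLDN7 from 24 to 48 h (-0.20), OCLN at 48 h (-0.23) and TJP1 at 72 h (0.17) and from 48 to 72 h (0.19) became calls. Same-numbered libraries did not deviate together as a rule, with a median r of 0.0092 and 8 of 20 libraries correlating best with their own number. The control and EGF 48 h libraries of replicate 2 (r = 0.33) and of replicate 3 (r = 0.35) did deviate together. Some differently numbered libraries did so too, control replicate 2 with EGF 48 h replicate 1 (r = 0.23) and control replicate 3 with EGF 48 h replicate 4 (r = 0.26). Others deviated in opposite directions, such as control replicate 2 and EGF 48 h replicate 3 (r = -0.30). The numbers were not taken to pair the samples.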
